A study of Mus musculus with 6 samples.

Results

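The genes described here encode tetraspanins, a family of small proteins that cross the membrane repeatedly and carry a cysteine-rich outer loop. They were taken as every gene whose probe set was annotated to 1 symbol, that symbol being Tspan followed by digits or Cd9, Cd37, Cd53, Cd63, Cd81, Cd82 or Cd151. This gave 26 genes of 19936 measured. Members were thus chosen by symbol. Mean signal across the 6 arrays was to pick among several probe sets of a gene, but each of the 26 had 1, so no such pick was made. The family itself was chosen with earlier results of these data known. Its counts and shares of called genes are therefore a description and no independent support. Tspan7 is not analysed here.

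Tetraspanins gather other membrane proteins, among them integrins, immunoglobulin-type adhesion molecules, receptors and the membrane protease Adam10, into shared patches of the membrane. Through these partners they act on adhesion, migration, shedding of surface proteins, receptor traffic and the release of vesicles. In endothelium they are known from cell contacts, angiogenesis and the storage granules that hold von Willebrand factor.

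The study compared 3 endothelial lines made from mouse embryonic stem cells, and the labels name each by its cadherins. The VE+N line is labelled as expressing both VE-cadherin and N-cadherin, the VE line as expressing VE-cadherin and the N line as expressing N-cadherin. In every line RNA was taken after seeding at a density of 50000 cells/cm2, 72 h of growth and a starvation of 18 to 20 h with 1% albumin. Each line was hybridised on 2 Affymetrix Mouse Gene 1.0 ST arrays from separate RNA extractions, and the number of arrays limits the precision. Each cadherin state is represented by 1 line, so what belongs to a cadherin and what belongs to a line cannot be told apart. The titles call them biological replicates, but no source used here says that they came from separate cultures, so the p-values measure the spread between these extracts, which may be technical.

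Cdh2, the gene of N-cadherin, had a mean log2 signal of 6.69 in the VE+N line, 5.86 in the VE line and 7.67 in the N line, and all 3 differences passed the test. Cdh5, the gene of VE-cadherin, had means of 7.10, 6.94 and 7.28 in the same order, and no difference in it passed, with adjusted p-values between 0.0917 and 0.462. The lines are therefore called by their labels. The mean log2 signal of 14 endothelial markers, including Cldn5, Flt1, Erg and Emcn, was 10.53 and 10.67 in the VE+N line, 10.04 and 10.01 in the VE line and 9.81 and 9.82 in the N line, where Vwf alone lay below the median gene. Cldn5 and Vwf carried the higher mean of VE over N (3.02 and 1.41), since the list's median VE minus N difference was −0.15, with 3 markers called higher and 3 lower. In VE+N minus N the list's median was only 0.11, with 5 called higher, 1 lower and 8 not called, while Vwf differed by 4.13. In VE+N minus VE the median was 0.29, with 5 called higher, none lower and 9 not called. Of 11 measured leukocyte markers, 10 lay below the median gene in every line, the exception being Cd68. All 6 embryonic stem cell markers lay below it in every line. The mean of 11 mural cell markers was 4.41 and 4.30 on the VE+N arrays and 5.06 and 5.18 on the VE arrays. On the N arrays it was 5.50 and 5.48. The list mean thus had the line order seen below in Tspan6, but most markers lacked calls between adjacent lines. In VE against N, 3 were called lower and 8 were not called (median −0.21). The counts were again 3 and 8 in VE+N against VE (median −0.07). Between VE+N and N, 6 were called lower in VE+N and 5 were not called. All 11 lay below the median gene in the VE+N line, 8 in the VE line and 7 in the N line. The part of mural cells in any tetraspanin difference was not tested.

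Values below are log2 signals as the authors deposited them, made with the RMA algorithm. Differences are log2 differences from a limma model over all genes and all 6 arrays, given with their standard error. A gene was called at an adjusted p (Benjamini-Hochberg over 19936 genes) below 0.05. In these bulk samples, fewer cells of a type and less RNA per cell cannot be told apart. Signals of different genes are not compared with each other, because each probe set has its own brightness.

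Of the 26 tetraspanins 15 were called in at least 1 comparison, 11 of these in exactly 2 and 4 in exactly 1, and 11 were called in none. Tspan13 and Tspan15 were far lower in the VE+N and VE lines than in the N line, and Tspan6 and Tspan9 were lower there by less. Tspan5, Tspan3 and Cd53 were higher in both. Cd82 was high in the VE line, whereas Tspan14 was high and Tspan8 and Tspan2 were low in the VE+N line. In VE minus N, 8 members were called, which is 30.8% of members against 15.4% of all genes. Of these 4 were higher, against 8.46% of all genes, and 4 lower, against 6.99%. In VE+N minus N, 13 were called, 50% of members against 19.1% of all genes. Of these 7 were higher, against 10.2% of all genes, and 6 lower, against 8.91%. In VE+N minus VE, 5 were called, 19.2% of members against 10.1% of all genes. Of these 1 was higher, against 4.29% of all genes, and 4 lower, against 5.84%. On average 18 members lay above the median gene and 8 below it. Without the dimmest 50% of genes, 3530, 4216 and 2597 genes were called in these comparisons, more than from all genes. A larger share of the brighter genes was thus called, and the shares of all genes given here are not matched for brightness. With the same filter 10, 11 and 6 of the 18 brighter members were called, set against the brighter 50% of 19936 genes. As a ratio, the excess of members over genes was smaller there than in the shares above. The 6 included Tspan13, which stayed in the filter only through its N arrays.

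Changes over 2-fold were found in 3, 5 and 1 members in the same order, against 3.81%, 4.6% and 2.52% of all genes. The arrays of the lines compared did not overlap in 19, 22 and 18 of the 26 members, but they also did not overlap in 57.3%, 55.1% and 49.5% of all genes. The median absolute log2 difference of the members was 0.241 in VE minus N, 0.385 in VE+N minus N and 0.162 in VE+N minus VE, against 0.152, 0.163 and 0.142 over all genes. The comparisons share arrays, so their counts are not independent of each other. Over all genes, 1686 were called higher and 1393 lower in VE minus N, but 1283 and 2398 after median centring. In VE+N minus VE the counts were 855 and 1165, and 1533 and 990 after centring. Differences of VE from N dropped by 0.108 with it, and small rises in the VE line depend on that scaling. Fewer members were called in VE+N minus N without N replicate 1 or N replicate 2, and fewer of all genes were called as well. In VE+N minus VE the same held without VE+N replicate 2, VE replicate 1 or VE replicate 2. Such falls are thus not particular to the members.

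**Figure D1:**
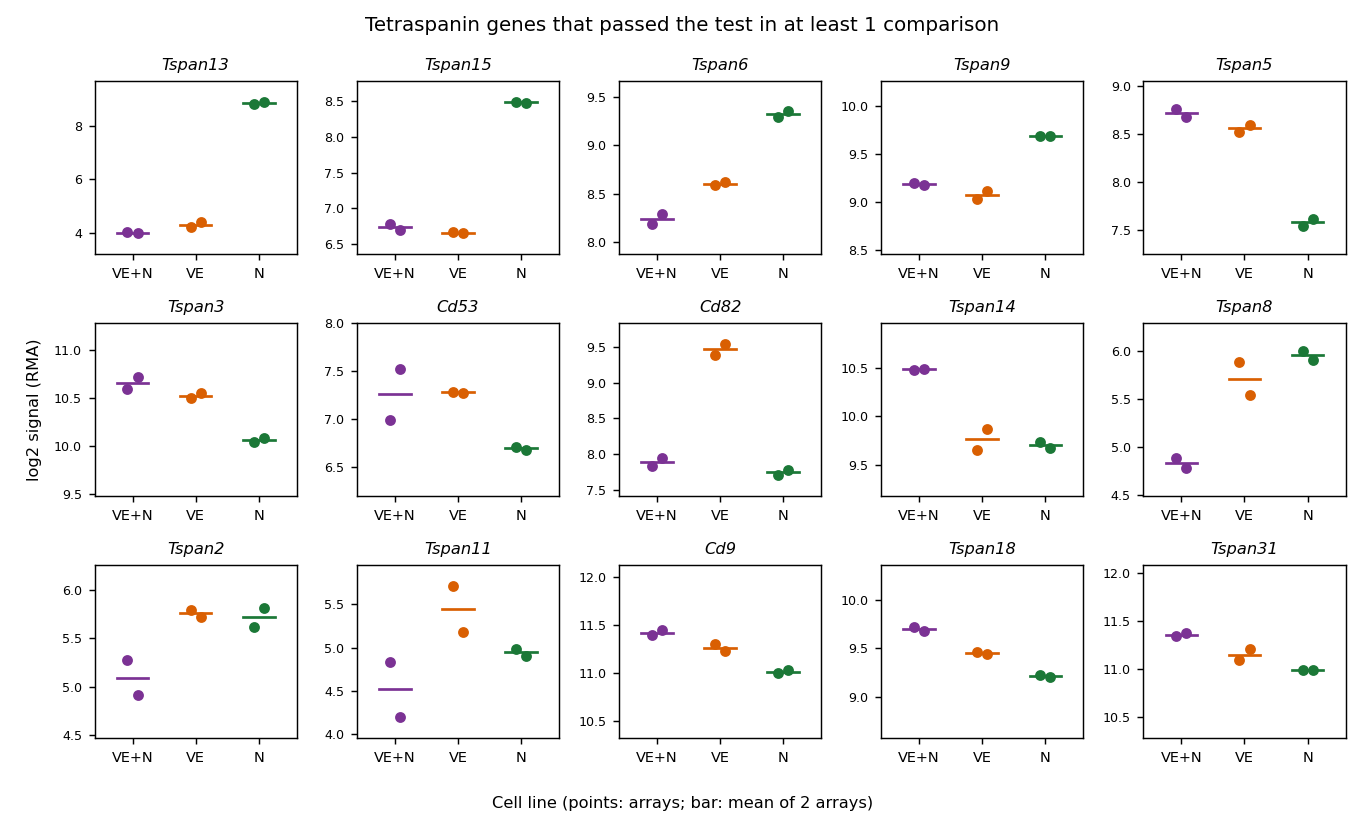
Log2 RMA signal (vertical axis, a separate range in each panel) of the 15 tetraspanin genes called in at least 1 comparison, by cell line. Points are single arrays and bars the mean of 2 arrays. Tspan13 lies near 4 in the VE+N and VE lines and near 8.8 in the N line, and Cd82 lies highest in the VE line.

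Tspan13, also called NET-6, is related to Tspan31 and belongs with it to a divergent branch of the family. Its log2 signal was 4.03 and 4.00 on the VE+N arrays, 4.22 and 4.41 on the VE arrays, and 8.80 and 8.89 on the N arrays. The groups were thus widely separated, and the 4 lower arrays lay under the median gene, which was between 5.47 and 5.59 on the 6 arrays. Tspan13 was lower, with a log2 difference of −4.83 ± 0.107 in VE+N against N (28.4-fold, limma adjusted p = 1.99e-07) and of −4.53 ± 0.107 in VE against N (23.1-fold, limma adjusted p = 3.51e-07). With so dim a signal in the VE+N and VE lines, these sizes are approximate. The VE+N and VE lines differed by −0.30 (95% interval −0.55 to −0.05), which did not pass after adjustment over all genes (limma adjusted p = 0.138). It passed only when the dimmest 50% of genes were left out, by the mean of all 6 arrays. Tspan13 stayed in that filter only through its bright N arrays, so this pass adds no support. Its relative Tspan31, whose gene lies beside the cell cycle kinase gene Cdk4, was higher in VE+N than in N by 0.37 ± 0.0975 (limma adjusted p = 0.0336). It was no longer called without any 1 of the 6 arrays (adjusted p 0.0543 to 0.169). Cdk4 itself differed by 0.25 in the same comparison and was not called (limma adjusted p = 0.121).

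Tspan15 belongs to the TspanC8 group, named for the cysteines of its outer loop, which bind Adam10 and carry it to the cell surface. In mouse brain and in human cells Tspan15 directs Adam10 to N-cadherin, which the protease sheds. The signal of Tspan15 was 6.78 and 6.70 on the VE+N arrays, 6.66 and 6.65 on the VE arrays, and 8.49 and 8.48 on the N arrays. The VE+N and VE lines were low and close together, and the N line stood apart. Tspan15 was lower, with a log2 difference of −1.74 ± 0.0958 in VE+N against N (3.35-fold, limma adjusted p = 1.06e-05) and of −1.83 ± 0.0958 in VE against N (3.55-fold, limma adjusted p = 1.53e-05). The VE+N and VE lines differed by 0.08, with a 95% interval of −0.14 to 0.31.

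Tspan5, another TspanC8 member, favours Notch activation through Adam10 in human cells. Its signal was 8.76 and 8.68 on the VE+N arrays, 8.53 and 8.60 on the VE arrays, and 7.55 and 7.62 on the N arrays. In contrast to Tspan15, the N arrays were lowest, with no overlap with either of the other lines. Tspan5 rose by 1.14 ± 0.0986 in VE+N against N (limma adjusted p = 0.000135) and by 0.98 ± 0.0986 in VE against N (limma adjusted p = 0.000392). The difference of VE+N from VE was 0.16 (95% interval −0.07 to 0.39) and was not called.

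The bases before the transcript starts of these 3 genes are given because Tspan13 and Tspan15 fell and Tspan5 rose in the same lines. They are the 250 bases before the annotated start from RefSeq on GRCm38.p6, each on the strand of its gene, 5′ to 3′. The windows are chr12:36042479-36042728 (minus strand) for Tspan13, chr10:62231219-62231468 (minus strand) for Tspan15 and chr3:138741958-138742207 (plus strand) for Tspan5. Capitals mark GC boxes (GGGCGG, or CCGCCC on the other strand) and an ETS core (CCGGAA, or TTCCGG).
Tspan13: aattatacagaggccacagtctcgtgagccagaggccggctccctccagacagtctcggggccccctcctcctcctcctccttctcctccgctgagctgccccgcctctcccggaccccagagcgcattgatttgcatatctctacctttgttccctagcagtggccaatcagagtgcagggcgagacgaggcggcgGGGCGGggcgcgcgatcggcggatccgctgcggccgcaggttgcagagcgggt
Tspan15: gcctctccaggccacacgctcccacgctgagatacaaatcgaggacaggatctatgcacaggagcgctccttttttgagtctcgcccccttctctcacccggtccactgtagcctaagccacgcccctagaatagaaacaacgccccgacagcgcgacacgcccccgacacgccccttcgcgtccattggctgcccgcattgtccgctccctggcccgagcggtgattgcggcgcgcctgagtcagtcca
Tspan5: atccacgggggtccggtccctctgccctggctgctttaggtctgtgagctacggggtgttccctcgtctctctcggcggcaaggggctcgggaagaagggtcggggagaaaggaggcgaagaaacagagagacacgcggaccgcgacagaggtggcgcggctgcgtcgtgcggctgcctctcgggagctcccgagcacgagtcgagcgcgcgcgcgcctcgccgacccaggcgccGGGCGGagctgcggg

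All 3 windows were rich in CG dinucleotides, with 21 in Tspan13, 23 in Tspan15 and 33 in Tspan5, against a median of 6 over 32851 promoters in the table. Similar counts were found in other members, with 24 in 1 window of Tspan4, 22 in 1 of Tspan14 and 22 in Tspan17. Other member windows held as few as 1. Tspan13 and Tspan5 each held 1 GC box and Tspan15 none, while 32.7% of all promoters and 15 of the 35 member windows held at least 1. None of the 3 held the ETS core, found in 12% of all promoters, TATAAA (12.4%), CACGTG (6.02%), TGTTTAC (3.17%) or CTTTGAT (3.21%), each searched on both strands. GC boxes and ETS cores did not overlap in any member's window. Promoters were found for 25 of the 26 members, and 1 promoter window of 35, that of Tspan8, held TGTTTAC.

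Tspan14 is the third TspanC8 gene that changed, and in human umbilical vein endothelial cells it is a main member of the group. Its signal was 10.49 and 10.49 on the VE+N arrays, 9.65 and 9.87 on the VE arrays, and 9.73 and 9.67 on the N arrays. The VE+N line was high and the other lines overlapped. Tspan14 rose by 0.73 ± 0.110 in VE+N against VE (limma adjusted p = 0.00467) and by 0.79 ± 0.110 in VE+N against N (limma adjusted p = 0.00166). VE minus N was 0.06 (95% interval −0.20 to 0.31). The first of these calls was lost with the methods' analysis of variance after adjustment (adjusted p = 0.0858).

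The other TspanC8 genes, Tspan10, Tspan17 and Tspan33, were called in no comparison. Tspan17 means were 6.25, 6.11 and 6.06 in the VE+N, VE and N lines. Tspan10 and Tspan33 were dim, below the median gene on average, and their arrays spread more widely. Tspan10 was 4.78 and 4.18 on the VE+N arrays, and its VE+N minus N difference passed without VE+N replicate 1 (−0.57, limma adjusted p = 0.0386) but not with all arrays (−0.27, limma adjusted p = 0.407).

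Adam10 itself was 11.11 and 11.33 on the VE+N arrays, 10.89 and 10.94 on the VE arrays, and 10.81 and 10.82 on the N arrays. It was higher in VE+N than in N by 0.40 ± 0.108 (limma adjusted p = 0.0357). Median centring ended this call (adjusted p = 0.0561), as did the loss of VE+N replicate 2 or any 1 array of the VE and N lines. VE minus N was 0.10 and not called (limma adjusted p = 0.633). Thus the largest TspanC8 differences in VE against N, in Tspan15 and Tspan5, stood beside a difference in Adam10 that was not called.

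**Figure D2:**
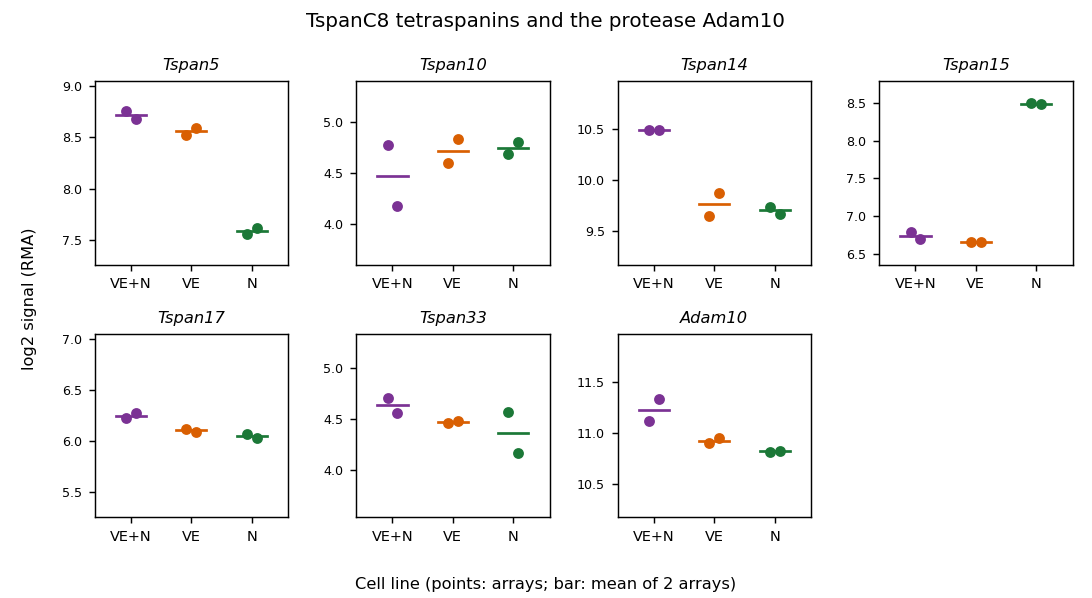
Log2 RMA signal (vertical axis, a separate range in each panel) of the 6 TspanC8 tetraspanin genes and of Adam10, by cell line. Points are single arrays and bars the mean of 2 arrays. Tspan15 is highest in the N line, Tspan5 lowest there, and Tspan14 highest in the VE+N line.

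Among 15 substrates of Adam10, 5 rose and 3 fell in VE against N, 3 rose and 5 fell in VE+N against N, and 2 rose and 5 fell in VE+N against VE. Over all genes 15.4%, 19.1% and 10.1% were called in these comparisons. In VE against N the counts were 5 and 5 after median centring. The Notch ligand Dll4 was lower, by a log2 difference of −2.86 in VE+N against N and of −1.48 in VE against N. The receptor Notch4 had differences of −1.56 and −1.03 in the same comparisons, while the interleukin receptor chain Il6ra rose by 1.02 and 1.16. The receptor kinase Axl was called in opposite directions, higher in VE against N by 1.49 and lower in VE+N against N (−0.78). Cdh2, described above, is in this list and was lower in VE+N than in N by a log2 difference of −0.97, although both lines are labelled with N-cadherin.

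Tspan6, which in human cells restrains antiviral signalling by RNA sensors, was 8.19 and 8.28 on the VE+N arrays, 8.59 and 8.62 on the VE arrays, and 9.30 and 9.36 on the N arrays. The lines did not overlap and were ordered with VE between the others. Tspan6 was lower, with a log2 difference of −1.09 ± 0.0977 in VE+N against N (limma adjusted p = 0.000158) and of −0.72 ± 0.0977 in VE against N (limma adjusted p = 0.00179). The step between VE+N and VE, −0.37, lay just outside the threshold (limma adjusted p = 0.0534) and passed under 4 alternatives, among them repeated quantile normalization.

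Tspan9, a partner of the collagen receptor of mouse platelets, was 9.19 and 9.18 on the VE+N arrays, 9.03 and 9.11 on the VE arrays, and 9.69 and 9.68 on the N arrays. It was highest in the N line and did not overlap with the others. Tspan9 was lower, with a log2 difference of −0.50 ± 0.0956 in VE+N against N (limma adjusted p = 0.00804) and of −0.62 ± 0.0956 in VE against N (limma adjusted p = 0.00357). The first call was lost without N replicate 1 or N replicate 2 (adjusted p = 0.0623 and 0.0594).

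Tspan3, which in mice supports the self-renewal of leukaemia stem cells, was 10.59 and 10.71 on the VE+N arrays, 10.49 and 10.55 on the VE arrays, and 10.04 and 10.08 on the N arrays. The N arrays were lowest. Tspan3 rose by 0.59 ± 0.0997 in VE+N against N (limma adjusted p = 0.00441) and by 0.46 ± 0.0997 in VE against N (limma adjusted p = 0.0173). The methods' analysis of variance after adjustment did not call the second (adjusted p = 0.0554). The VE call ended with median centring (0.35, adjusted p = 0.0543) and without any 1 of the VE and N arrays (adjusted p 0.0782 to 0.119).

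Cd53 is a tetraspanin of leukocytes. Its signal was 6.997 and 7.52 on the VE+N arrays, 7.29 and 7.27 on the VE arrays, and 6.71 and 6.68 on the N arrays. The N arrays were lowest, and the VE+N arrays spread on both sides of the VE arrays. Cd53 rose by 0.56 ± 0.161 in VE+N against N (limma adjusted p = 0.0456) and by 0.58 ± 0.161 in VE against N (limma adjusted p = 0.0469). Both calls lay near the threshold and ended with median centring (adjusted p = 0.0636 and 0.0929). They were also lost with the methods' analysis of variance after adjustment (adjusted p = 0.253 and 0.26). Without VE+N replicate 2 the VE+N minus N difference was 0.30 (adjusted p = 0.113), and the loss of any 1 VE or N array also ended both calls. The pan-leukocyte marker Ptprc had means of 2.83, 2.54 and 2.85 in the VE+N, VE and N lines, far under the median gene. No leukocyte marker was called higher in any comparison. Cd68 was lower in all 3 comparisons, with means of 8.68, 9.99 and 11.56 in the same order of lines, and Cd14 was lower in VE+N than in the other lines. The other leukocyte tetraspanins, Cd37 of B cells and Tspan32, lay below the median gene on average and were not called.

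Cd82, known as Kai1, limits the spread of tumour cells and in mice restrains the growth of new vessels. Its signal was 7.84 and 7.94 on the VE+N arrays, 9.39 and 9.54 on the VE arrays, and 7.71 and 7.78 on the N arrays. The VE line stood alone at the top. Cd82 was lower in VE+N than in VE by a log2 difference of −1.58 ± 0.106 (2.98-fold, limma adjusted p = 0.000102). It rose by 1.72 ± 0.106 in VE against N (3.3-fold, limma adjusted p = 3.19e-05). VE+N minus N was 0.15 (95% interval −0.10 to 0.39). Most fibroblast markers were also highest in the VE line. The mean log2 signal of 7 of them was 4.54 and 4.48 on the VE+N arrays, 6.47 and 6.45 on the VE arrays, and 5.14 and 5.12 on the N arrays, of which 6 were called lower in VE+N than in VE, and 5 were called higher and 1 lower in VE than in N. The marker lower in VE than in N was Fap, with means of 2.99, 3.61 and 5.24 in the VE+N, VE and N lines, and Thy1 was not called. The defining markers Col1a1 and Dcn had means of 6.19 and 3.79 in the VE+N line, 9.70 and 8.18 in the VE line, and 6.305 and 5.11 in the N line. Their part in the Cd82 difference was not tested.

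Tspan8, a tetraspanin of carcinoma vesicles, was 4.89 and 4.78 on the VE+N arrays, 5.88 and 5.55 on the VE arrays, and 6.00 and 5.91 on the N arrays. The VE+N arrays were lowest and lay under the median gene. Tspan8 was lower in VE+N than in VE by a log2 difference of −0.88 ± 0.131 (limma adjusted p = 0.00432) and lower than in N by −1.12 ± 0.131 (limma adjusted p = 0.000638). Both calls were lost with the methods' analysis of variance after adjustment (adjusted p = 0.114 and 0.0507).

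Tspan2, best known from myelin-forming cells, was 5.27 and 4.91 on the VE+N arrays, 5.80 and 5.73 on the VE arrays, and 5.62 and 5.82 on the N arrays. The VE+N line was again lowest, and its arrays lay under the median gene. Tspan2 was lower, with a log2 difference of −0.67 ± 0.141 in VE+N against VE (limma adjusted p = 0.021) and of −0.63 ± 0.141 in VE+N against N (limma adjusted p = 0.0163). Without VE+N replicate 2 the differences were −0.49 and −0.45 and were not called (adjusted p = 0.088 and 0.0693). Neither was the first without VE replicate 1 or VE replicate 2, nor the second without N replicate 2. Both calls were also lost with the methods' analysis of variance after adjustment (adjusted p = 0.192 and 0.153). Testing all probe sets ended both as well (limma adjusted p = 0.108 and 0.0742).

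Tspan11, a close relative of Cd151, was the member whose replicate arrays differed most in the VE+N and VE lines. It was 4.84 and 4.20 on the VE+N arrays, 5.71 and 5.18 on the VE arrays, and 4.99 and 4.90 on the N arrays. It was called lower in VE+N than in VE by a log2 difference of −0.93 ± 0.231 (limma adjusted p = 0.0415). The methods' analysis of variance after adjustment did not call it (adjusted p = 0.302). It was no longer called without VE+N replicate 2 (−0.61, adjusted p = 0.186), VE replicate 1 (−0.67, adjusted p = 0.244) or VE replicate 2 (−1.19, adjusted p = 0.0594).

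Cd9 and Tspan18 rose in VE+N against N in small steps. Cd9, a partner of integrins and of immunoglobulin-type proteins that is also needed on the mouse egg for fusion with sperm, was 11.39 and 11.44 on the VE+N arrays, 11.29 and 11.23 on the VE arrays, and 10.996 and 11.03 on the N arrays. Its VE+N minus N difference was 0.40 ± 0.0959 (limma adjusted p = 0.0215), lost without N replicate 1, N replicate 2 or VE+N replicate 2 (adjusted p 0.0667 to 0.142). Tspan18, which in human endothelial cells binds the calcium channel Orai1, was 9.72 and 9.68 on the VE+N arrays, 9.46 and 9.45 on the VE arrays, and 9.22 and 9.21 on the N arrays. Its VE+N minus N difference was 0.49 ± 0.0940 (limma adjusted p = 0.00835), lost without N replicate 1 or N replicate 2 (adjusted p = 0.0611 and 0.0669). In both genes the VE arrays lay between the other lines, and no difference of VE from either line was called, although VE minus N passed in both with a trended and robust prior.

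The remaining members are known widely, and no comparison called them. Cd81, which joins the receptor complex of B cells, had means of 12.05, 12.05 and 12.21 in the VE+N, VE and N lines. Cd151, the partner of laminin-binding integrins, had means of 10.42, 10.14 and 10.31, and its VE+N minus VE difference of 0.28 (limma adjusted p = 0.116) passed under 3 alternatives. Cd63, a protein of late endosomes and of the storage granules of endothelium, had means of 10.03, 9.81 and 9.76. Tspan12, which helps the norrin receptor Fzd4 in retinal vessels, had means of 8.78, 8.91 and 8.91. The VE minus N difference of Tspan12 was 0.002 with a 95% interval of −0.34 to 0.34. Tspan4, a marker of migrasomes, had means of 9.15, 9.15 and 9.09, and Tspan1 was dim at 3.50, 3.40 and 3.15. Differences that were not called ranged from −0.27 to 0.50 in VE minus N, from −0.43 to 0.34 in VE+N minus N and from −0.37 to 0.28 in VE+N minus VE.

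**Figure D3:**
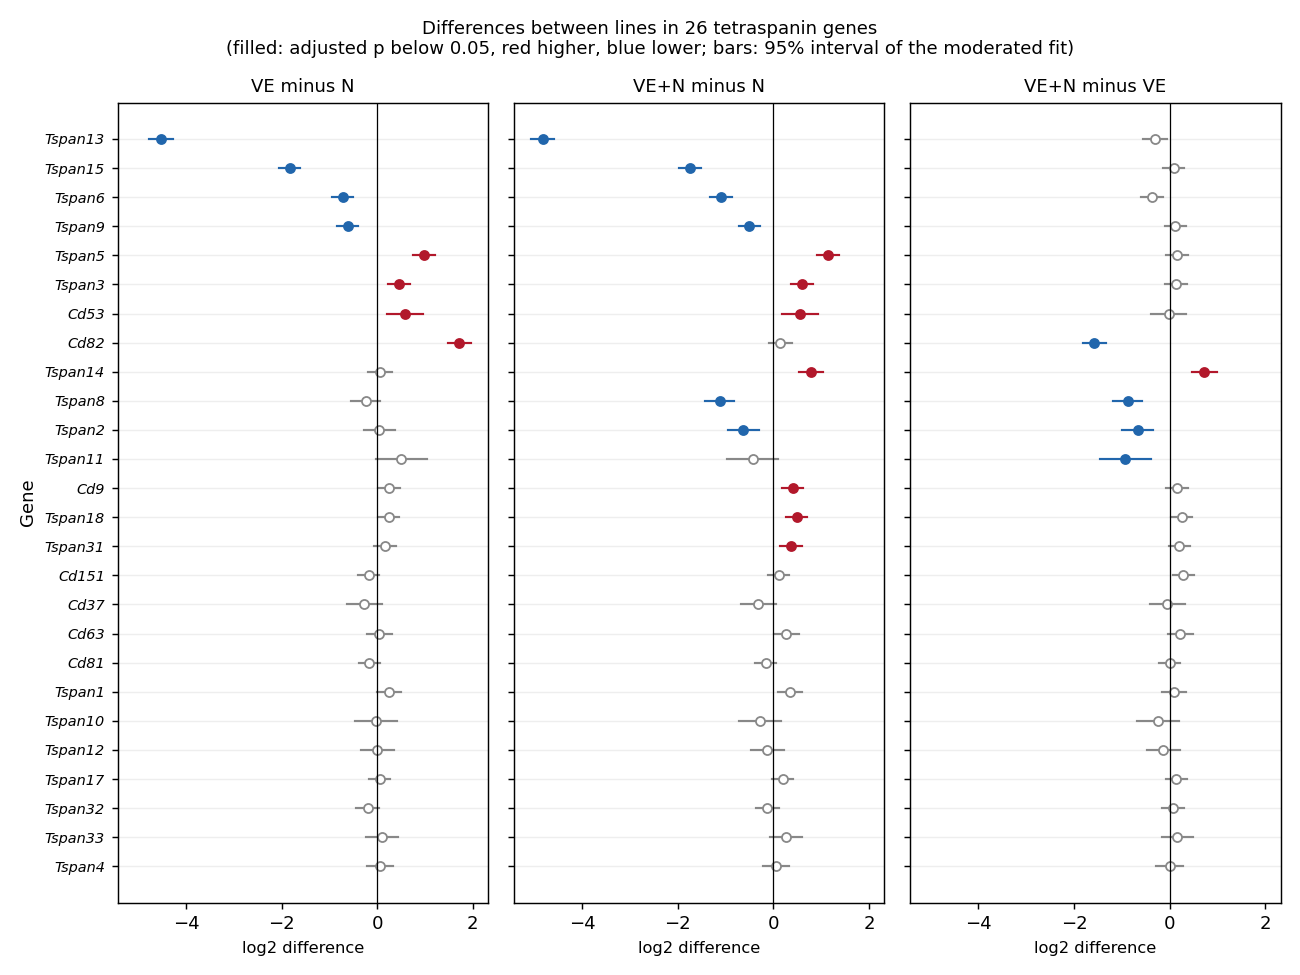
Log2 differences of the 26 tetraspanin genes (rows) in VE minus N, VE+N minus N, then VE+N minus VE (panels), with 95% intervals from the moderated fit. Filled points passed adjusted p 0.05, red for higher and blue for lower. Tspan13 stands far to the left in the first 2 panels, at −4.53 and −4.83, and Cd82 changes side between the outer panels.

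The neighbours of the called genes on the chromosome were set beside them, taking gene order alone from GRCm38.p6. They were fixed by position, and those named were chosen after their values were seen. Around Tspan13, Agr2 was not called and Bzw2 was lower in VE+N than in N by a log2 difference of −0.47 (limma adjusted p = 0.0165), a small step beside that of Tspan13. No neighbour of Tspan15 (Neurog3, Tacr2), Tspan5 (Eif4e, Rap1gds1) or Tspan6 (Tnmd, Srpx2) was called in any comparison. Nor was any neighbour of Cd53, Tspan2, Tspan3 or Tspan8. Around Tspan14 both neighbours rose in VE+N against N, Sh2d4b by 2.91 (limma adjusted p = 1.3e-06) and Prxl2a by 1.69 (limma adjusted p = 0.000817). Both also rose in VE+N against VE, by 1.52 and 1.56. Over all genes 19.1% and 10.1% were called in these comparisons. Both neighbours of Cd63, which was not called, also rose in VE+N against N, Gdf11 by 1.88 and Rdh5 by 0.83. Cd82 and Tspan18 are neighbours and differed in pattern, as described above. Trp53i11, on the other side of Tspan18, was lower in VE+N than in N by a log2 difference of −1.65 (limma adjusted p = 1.47e-05), where Tspan18 rose. Tead4, beside Tspan9, was higher in VE+N than in N by 0.37 (limma adjusted p = 0.0402), where Tspan9 fell. Agap2, beside Tspan31, was not called in VE+N against N but was higher in VE than in N by 1.27 and lower in VE+N than in VE by a log2 difference of −1.47. Cd151 and Tspan4, with Polr2l between them, and also Cd81 and Tspan32, lie close together, and no difference in these 4 genes was called. Cd9 lies beside Vwf, the gene of von Willebrand factor, which rose by 4.13 in VE+N against N, where Cd9 rose by 0.40.

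Partners of tetraspanins were counted from a list of 31 genes, all measured. Of these, 10 rose and 5 fell in VE against N, 7 rose and 8 fell in VE+N against N, and 3 rose and 8 fell in VE+N against VE. The share of all genes called in the same comparisons was 15.4%, 19.1% and 10.1%. After median centring 7 partners rose and 8 fell in VE+N against VE, and after repeated quantile normalization 2 rose and 9 fell. The medians of the list were −0.01, 0.12 and −0.04, against −0.02, −0.004 and 0.03 over all genes.

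Among the integrin subunits, Itga3, which pairs with Itgb1 as the main integrin of Cd151, was 7.36 and 7.40 on the VE+N arrays, 8.17 and 8.31 on the VE arrays, and 9.59 and 9.57 on the N arrays. Its log2 difference was −2.20 ± 0.10 in VE+N against N (limma adjusted p = 4.2e-06) and −1.34 ± 0.10 in VE against N (limma adjusted p = 8.5e-05). Itga7, another laminin-binding subunit, ran the other way, at 8.44 and 8.49 on the VE+N arrays, 7.52 and 7.45 on the VE arrays, and 6.83 and 6.92 on the N arrays. It rose by 1.59 ± 0.0986 in VE+N against N (limma adjusted p = 2.04e-05) and by 0.61 ± 0.0986 in VE against N (limma adjusted p = 0.00433). In VE+N against VE, Itga3 was also lower (−0.86, limma adjusted p = 0.00138) and Itga7 higher (0.98, limma adjusted p = 0.000675). Itga4, below the median gene on average, was higher in VE than in N by 0.69 (limma adjusted p = 0.00815). It was lower in VE+N than in VE (−0.57, limma adjusted p = 0.0277). Both Itga4 calls were lost with the methods' analysis of variance after adjustment. Itga6, Itgb1 and Itgb4 were called in no comparison. The differences of Itga3 and Itga7 thus stood beside a Cd151 that was not called.

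Ptgfrn (EWI-F), which binds Cd9 and Cd81 directly, was 4.40 and 4.59 on the VE+N arrays, 6.96 and 7.21 on the VE arrays, and 5.17 and 5.40 on the N arrays. It was lower in VE+N than in VE by a log2 difference of −2.59 ± 0.135 (limma adjusted p = 2.93e-05) and higher in VE than in N by 1.80 ± 0.135 (limma adjusted p = 8.63e-05), so that the VE line was highest, as for Cd82 and most fibroblast markers, whose part was not tested. Unlike Cd82, Ptgfrn was also called lower in VE+N than in N (−0.79, limma adjusted p = 0.0045). The methods' analysis of variance after adjustment did not call that difference (adjusted p = 0.0939). Igsf8 (EWI-2), a relative of Ptgfrn, was not called. Igsf3 was higher in VE+N than in N by 1.30 and than in VE by 0.70. Vcam1, an adhesion receptor for leukocytes held in tetraspanin patches, was lower in VE+N than in VE by a log2 difference of −2.66. It was higher in VE than in N by 2.05. In VE+N against N it was also called lower (−0.61, limma adjusted p = 0.0297), a call lost without any 1 of the VE+N and N arrays. Icam1 was lower in VE than in N by a log2 difference of −0.61, a call lost without VE replicate 2 or N replicate 1.

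Of 8 receptors and adhesion proteins in the list, 4 rose and 2 fell in VE against N, 2 rose and 3 fell in VE+N against N, and none rose and 4 fell in VE+N against VE, beside the same shares of all genes. The stem cell factor receptor Kit was 5.07 and 5.19 on the VE+N arrays, 5.92 and 5.97 on the VE arrays, and 9.73 and 9.76 on the N arrays, and its log2 difference was −4.62 in VE+N against N and −3.80 in VE against N. The scavenger receptor Cd36 was lower in the same comparisons (−3.13 and −1.53). Cd44, the hyaluronan receptor whose surface level Cd82 limits in mouse endothelium, was higher in VE than in N by 0.83 and lower in VE+N than in VE by a log2 difference of −1.83. The growth factor receptor gene Egfr was higher in VE than in N by 1.90 and lower in VE+N than in VE by a log2 difference of −2.24.

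Zdhhc2, an enzyme that attaches palmitate to Cd9 and Cd151, rose by 0.88 ± 0.0949 in VE+N against N (limma adjusted p = 0.000414) and by 1.01 ± 0.0949 in VE against N (limma adjusted p = 0.000273). The membrane protease Mmp14 was lower in the same comparisons (−0.96 and −0.65). The growth factor gene Hbegf, whose product binds Cd9, fell by 0.58 in VE+N against N (limma adjusted p = 0.00506), a call lost without N replicate 2. Fzd4, Lrp5, Lrp6 and Ndp of the norrin receptor complex were not called, but 2 of the 4 were called higher in VE+N against VE after median centring. Orai1, the partner of Tspan18, was higher in VE+N than in N by 0.43 (limma adjusted p = 0.0283) and than in VE by 0.44 (limma adjusted p = 0.0429). Both Orai1 calls were lost with repeated quantile normalization, with all probe sets tested and in the fits on 4 arrays. The methods' analysis of variance after adjustment ended both as well. So did the loss of any 1 array other than VE+N replicate 2.

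**Figure D4:**
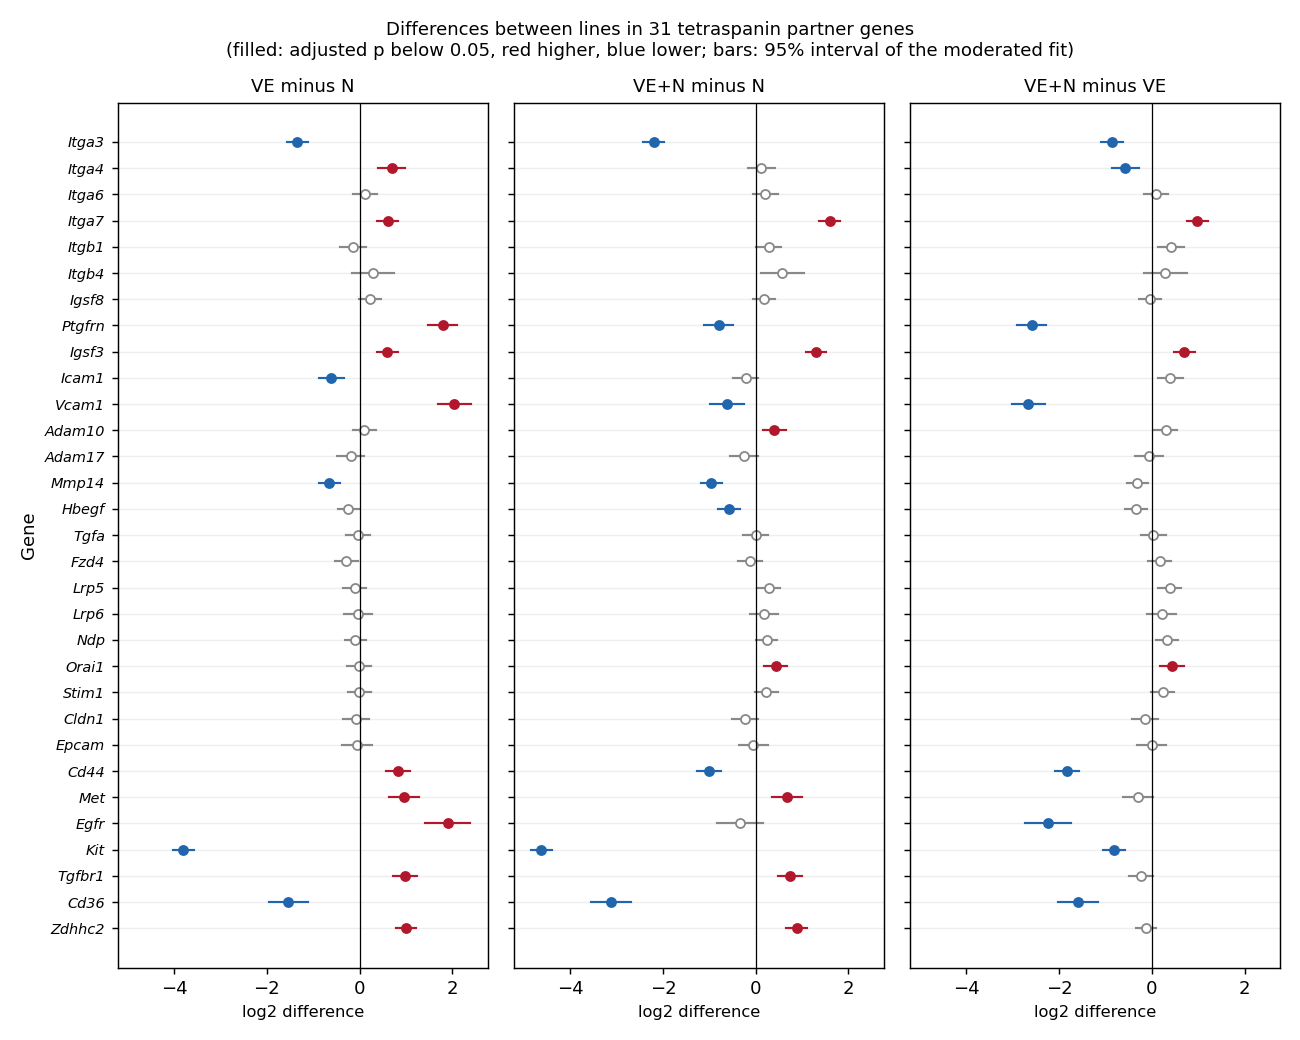
Log2 differences of 31 genes whose products bind or act on tetraspanins (rows) in VE minus N, VE+N minus N, then VE+N minus VE (panels), with 95% intervals from the moderated fit. Filled points passed adjusted p 0.05, red for higher and blue for lower. Kit lies farthest to the left in the first 2 panels, and Ptgfrn, Vcam1, Cd44 and Egfr lie to the right in VE minus N and to the left in VE+N minus VE.

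Of 13 measured genes of vesicle release and late endosomes, 3 rose and 1 fell in VE against N, 2 rose and 1 fell in VE+N against N, and 1 rose and 1 fell in VE+N against VE. Over all genes 15.4%, 19.1% and 10.1% were called, so the share called in this list lay near that of all genes in the last 2. In VE against N the counts became 2 and 3 after median centring, and 3 and 0 after repeated quantile normalization. Rab27a, a regulator of vesicle docking, was 9.26 and 9.17 on the VE+N arrays, 8.69 and 8.69 on the VE arrays, and 8.26 and 8.19 on the N arrays, and it rose by 0.99 in VE+N against N (limma adjusted p = 0.000261). Its smaller steps in VE against N (0.47) and VE+N against VE (0.52) were called, but neither call was kept without VE replicate 1 or VE replicate 2. The VE against N call was also lost without N replicate 1 or N replicate 2. Flot1, a protein of membrane rafts, was higher in VE than in N by 0.63, a call lost without VE replicate 1 or N replicate 1. Sdcbp (syntenin), Pdcd6ip, Lamp1 and Lamp2 were not called.

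Tetraspanins whose symbols lie outside the naming rule, Prph2 and Rom1 of photoreceptors and Upk1a and Upk1b of the bladder lining, were called in no comparison. Of 5 genes of the related L6 group, Tm4sf1, an endothelial surface protein, was higher in VE than in N by 0.48 (limma adjusted p = 0.0124). It was lower in VE+N than in VE by a log2 difference of −0.56 (limma adjusted p = 0.00891). The first call was lost without any 1 of the VE and N arrays, and the second without VE replicate 1 or VE replicate 2. The second was also lost with the methods' analysis of variance after adjustment (adjusted p = 0.0511). The means of Tm4sf1 were 8.90, 9.46 and 8.98 in the VE+N, VE and N lines, highest in the VE line as Cd82 was.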

How the data were processed

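The deposited values are log2 signals, for which the submitters' processing notes name RMA and Partek 6.3. RMA corrects background, normalizes by quantiles and summarizes each probe set. The genome build and probe annotation behind it are not given in the sources used here. That the deposited scale is log2 was read from the values, which ran from 0.817 to 14.2.

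Of 35556 probe sets, 21789 carried 1 symbol in GEO's platform annotation. Symbols were updated through Entrez identifiers (21698) or accessions (3), or kept (88). For 1001 genes with several probe sets the brightest on average was kept, leaving 19936 genes, and dim genes were kept in.

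Line means were fitted with limma 3.58.1 in R 4.3.3 over all 6 arrays (3 residual and 4.89 prior degrees of freedom), with Benjamini-Hochberg adjustment in each comparison. Values after ± are standard errors. No 2 arrays held identical values. The fit was tested on simulated data. The series' design text describes an analysis of variance with a threshold of 2-fold and p of 0.05, called the methods' analysis of variance here.

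All 26 members are accounted for, with array values given for those called. Of each list and marker list, the genes named were chosen among the called members with the largest differences, beside Cdh2, Cdh5 and Adam10, and uncalled genes are named for their role. Neighbouring genes were fixed by position and named after their values were seen. The members and lists were chosen with earlier results of these data known, so the large fall of Tspan13, already known, is a description and no independent support. The replicate numbers in the titles were not taken to pair the arrays, because the replicate differences of the lines correlated at 0.123, 0.0689 and −0.00504 across genes. Promoters came from RefSeq on GRCm38.p6 and were matched by gene identifier. Alternatives were a replicate block, fits on 4 arrays, another prior, median centring, repeated quantile normalization, removal of dim genes, other uses of probe sets, the methods' analysis of variance and each array left out in turn.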

Additional observations from a re-analysis of the deposited data

How the results depend on the processing

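Of the 26 called differences of tetraspanins, 13 kept their call under every alternative that uses an adjusted p: Tspan13, Tspan15, Tspan5 and Tspan6 in VE and in VE+N against N, Tspan9 in VE against N, Tspan14 and Tspan3 in VE+N against N, and Cd82 in VE against N and in VE+N against VE. Of 123 called differences of list and marker genes, 62 kept their call under the same alternatives. None of these differences reversed. With the replicate block the calls were 3056, 3864 and 2055 genes and 8, 13 and 5 tetraspanins in VE minus N, VE+N minus N, then VE+N minus VE, against 3079, 3802 and 2020 genes and the same tetraspanin counts without it, so it changed no tetraspanin call. It ended the call of Tsg101 in VE against N (adjusted p = 0.0549) and brought Icam1 in VE+N against VE past the threshold (adjusted p = 0.049). The methods' analysis of variance gave 1276, 1867 and 311 genes with Benjamini-Hochberg, with 7, 10 and 1 tetraspanins. At over 2-fold and unadjusted p of 0.05 it gave 751, 909 and 493 genes and 3, 5 and 1 tetraspanins. Testing all probe sets gave 1117 calls and 3 tetraspanins in VE+N minus VE, and the trended and robust prior gave 8 tetraspanins there. With 1 array left out, calls ranged from 1688 to 3356, from 2243 to 3800 and from 966 to 2049 genes, and from 6 to 8, from 7 to 13 and from 3 to 5 tetraspanins. The cause of these changes was not tested, except that a line left with 1 array is assumed to vary like the others. Arrays hold no read depth, and detection above background was not used here, so differences of dim genes are approximate in size.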
